A study of Mus musculus with 36 samples.

Results

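The genes followed here encode proteins that sit on lipid droplets or regulate the lipase that empties them: the perilipins Plin1, Plin2, Plin3, Plin4 and Plin5, the CIDE proteins Cidea, Cideb and Cidec, and the small lipase inhibitors G0s2 and Hilpda. They were taken as every probe other than a control whose gene name in the array files equals 1 of these 10 symbols. That gave 15 probes, and the 10 genes stand among 37061 on the array. All 10 were among the 24098 genes tested. For a gene to be tested, its brightest probe had to stand well above background in 5 or more of the 6 mice of some group. Of the 10, 9 met this in all 6 groups and Cidea did not.

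Liver RNA of 36 male mice on the C57Bl/6J background was read on 36 single-colour arrays, 1 per mouse. In AAKO mice the triglyceride lipase ATGL (gene Pnpla2) is missing from white adipose tissue, and CTRL mice are the controls. The promoter that drives the deletion and the age of the mice are not given in the sources used here. Each genotype was studied in 3 conditions with 6 mice each. The first was free feeding on a standard diet. The second was a 24 h fast. The third was feeding plus CL316243, which activates the beta 3 adrenergic receptor and so sets off lipolysis in fat cells, at 3 mg/kg by gavage in carboxymethyl cellulose at Zeitgeber time 10. Livers were taken at Zeitgeber time 16 in every group. Fed mice make up experiment 2 and all other mice experiment 1, so in comparisons with fed mice the condition and the experiment cannot be told apart. Only treated mice have a gavage time in the labels, so gavage and drug cannot be told apart either.

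Lipid droplets are stores of triglyceride inside a single layer of phospholipid. Perilipins coat that layer and govern how far lipases reach the core, and their amount in liver is known to follow the amount of stored fat. CIDE proteins gather at contacts between droplets and promote their fusion and growth, and Cideb also takes part in loading very low density lipoproteins with lipid. G0s2 and Hilpda bind ATGL and inhibit it. Several of these genes are known targets of PPARα, a nuclear receptor activated by fatty acids, and Hilpda is also known to respond to hypoxia.

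The stretches of 250 bases just before the annotated transcription start sites are shown for the 3 windows of these genes that hold an element of interest. They come from the RefSeq promoter table of GRCm38.p6, which gave 12 windows for 9 of the genes, all but Cidea. Each is written 5′ to 3′ in the direction of the gene. Capitals mark AGGTCA, the core element of many nuclear receptors including PPARα, or ACGTG, the core of the hypoxia response element, each searched on both strands. The Plin2 window lies on the minus strand at chr4:86670060-86670309, the Plin5 window on the minus strand at chr17:56117549-56117798 and the Hilpda window on the plus strand at chr6:29272376-29272625. Plin5 and Hilpda each have a further window.
Plin2: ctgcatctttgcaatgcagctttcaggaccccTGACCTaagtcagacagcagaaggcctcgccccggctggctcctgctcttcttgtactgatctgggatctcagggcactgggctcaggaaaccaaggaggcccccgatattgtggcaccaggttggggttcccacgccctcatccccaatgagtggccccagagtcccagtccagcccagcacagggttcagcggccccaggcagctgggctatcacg
Plin5: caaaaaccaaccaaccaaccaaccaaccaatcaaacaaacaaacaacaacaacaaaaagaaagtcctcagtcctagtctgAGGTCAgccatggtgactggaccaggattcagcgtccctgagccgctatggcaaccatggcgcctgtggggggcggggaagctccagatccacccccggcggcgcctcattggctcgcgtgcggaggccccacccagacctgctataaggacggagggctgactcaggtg
Hilpda: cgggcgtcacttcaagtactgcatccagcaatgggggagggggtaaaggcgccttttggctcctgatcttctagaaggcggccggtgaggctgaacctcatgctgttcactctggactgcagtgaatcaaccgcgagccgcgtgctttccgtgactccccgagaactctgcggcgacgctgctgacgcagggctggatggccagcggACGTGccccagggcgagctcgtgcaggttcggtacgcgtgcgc
In the Plin2 window the capitals TGACCT are AGGTCA read on the other strand. The element was found in 2 of the 12 windows, against 14.0% of 32807 windows in the table. The element ACGTG was found in 1 of the 12, against 16.6%. Paired elements of the form AGGNCANAGGNCA, searched on both strands, were found in 0 of the 12, against 0.338%. A match is a run of letters and not a shown binding site.

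Levels are log2 signals from which the array's own 75th percentile (on the log2 scale) was subtracted, so 0 is the brightness of that percentile, and levels of different probes are not compared. The number of probes well above background ran from 33131 to 37203. Arrays of a group correlated with each other at r between 0.978 and 0.995, and the lowest value was among CTRL fasted arrays. All 6 hepatocyte markers (Alb, Ttr, Apoa1, Apob, Cps1 and Hnf4a) were well above background on every array. Of the adipocyte markers, Ucp1 was above background on 0 of 36 arrays, Trarg1 on 1, Cfd on 15, Adipoq on 21, Retn on 32, and Lep and Adrb3 on all 36. On the first principal component of the tested genes, which held 41.9% of the variance, CTRL fasted replicate 2 stood at 80.9, apart from the other 5 CTRL fasted mice (16.7 to 28.9) and nearer to the AAKO fasted mice (102 to 110.3). Results between the fasted genotypes are therefore given without it further down. In whole liver, fewer cells of a type and less RNA per cell cannot be told apart. Nothing in the labels says that mice of a group came from separate litters, so p-values measure the spread between these 36 mice. A difference is said to be called where limma's p-value, adjusted over all 24098 genes by the Benjamini-Hochberg method, was under 0.05. Values after ± are SEs of differences unless marked SD.

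In fed mice, no gene of the group was called between the genotypes (0 of 10, against 0.0788% of all genes tested by limma). At an unadjusted p under 0.05 there were 2, Cidec and G0s2, against 6.79% of all genes. In fasted mice 9 of 10 were called, against 49.2% of all genes. Of these, 6 were lower in AAKO (Plin2, Plin4, Plin5, Cideb, Cidec and G0s2) and 3 were higher (Plin1, Plin3 and Hilpda). The direction for Plin1 held for its brightest probe only, and the calls of Plin4 and Plin5 were lost without some single mice. After CL316243, 5 of 10 were called, against 24.6% of all genes, and all 5 were lower in AAKO (Plin2, Plin5, Cideb, Cidec and G0s2). The median difference of the 10 genes was -0.08 in fed, -0.79 in fasted and -0.70 in treated mice, against -6e-04, -0.03 and 0.03 for all genes.

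**Figure D1:**
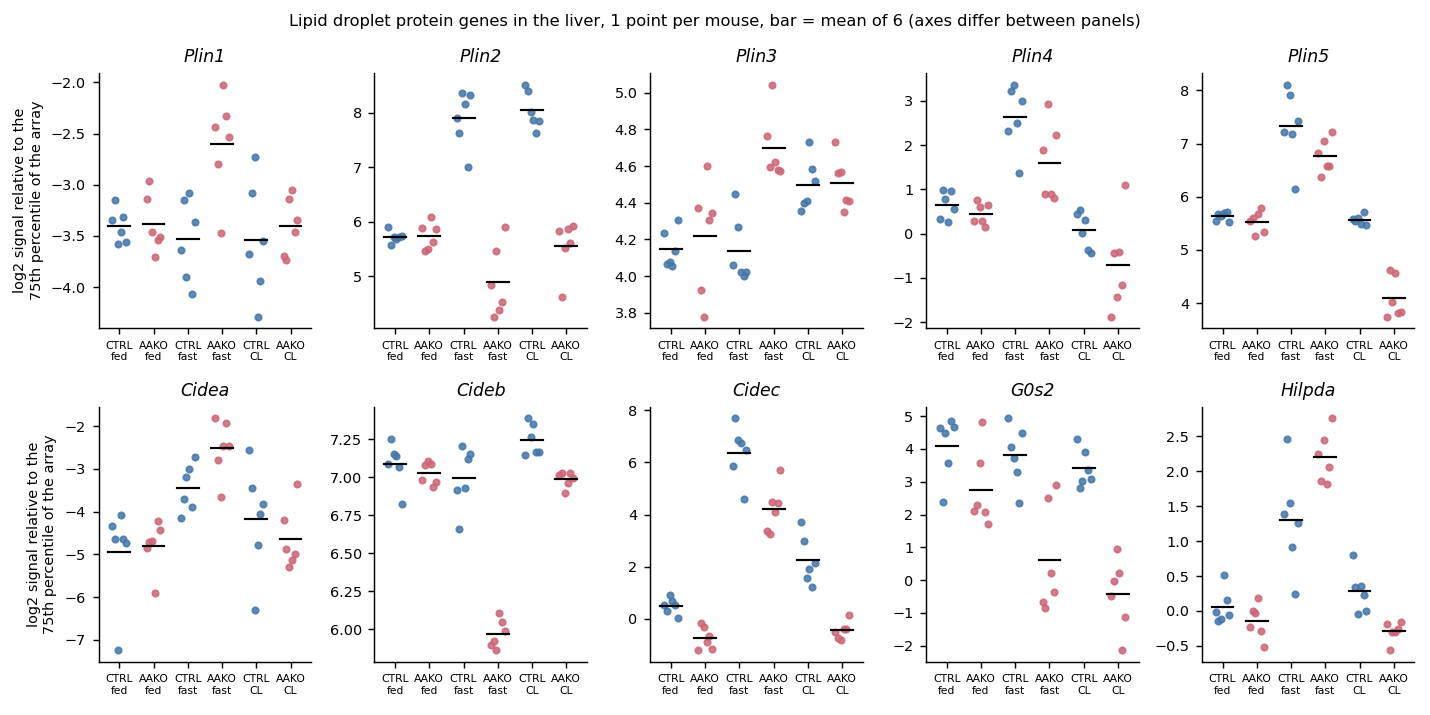
Log2 signal above or below the array's 75th percentile for the 10 genes in each of the 36 mice, with CTRL in blue and AAKO in red, 1 point per mouse and a bar at the mean of 6. The axes differ between panels. Plin2 was high only in the CTRL fasted and CTRL CL316243 mice, between 6.995 and 8.51, while the other 4 groups lay between 4.26 and 6.08.

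**Figure D2:**
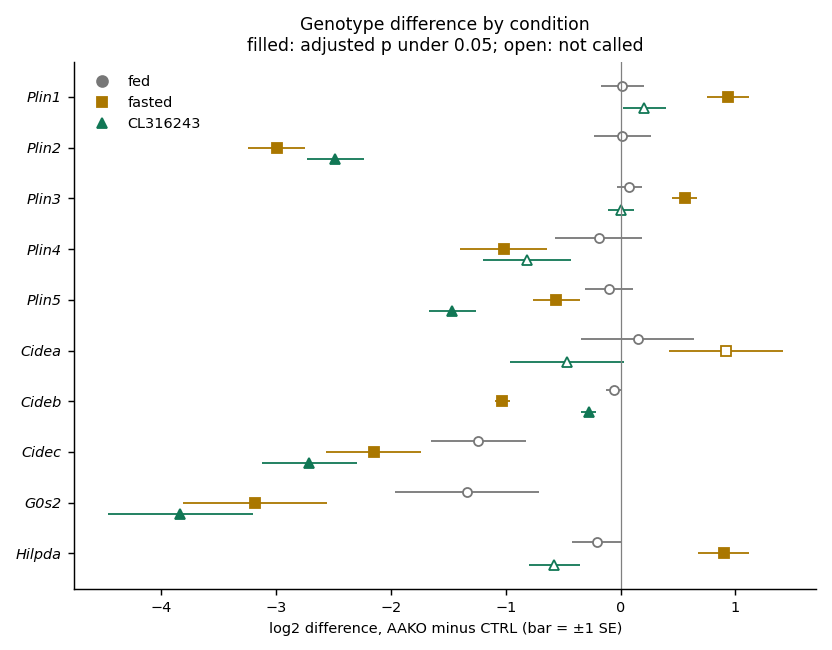
Log2 difference between AAKO and CTRL for each gene in fed (circles), fasted (squares) and CL316243-treated (triangles) mice, with bars of 1 SE. Filled symbols are called and open ones are not. Plin2, Cidec and G0s2 lie at -2.15 or lower in both fasted and treated mice. Plin1 (by its brightest probe), Plin3, Hilpda and Cidea lie to the right of 0 when fasted, Cidea with an open symbol.

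Plin2 encodes the main perilipin of hepatocytes, which coats the droplets and shields them from lipases. Its brightest probe lies at chromosome 4, 86302847 to 86302906 (mm9). The lowest, median and highest levels were 5.57, 5.72 and 5.90 in CTRL fed and 5.46, 5.74 and 6.08 in AAKO fed mice. They were 6.995, 8.03 and 8.36 in CTRL fasted and 4.26, 4.69 and 5.91 in AAKO fasted mice. Treated CTRL mice had 7.62, 7.93 and 8.51 and treated AAKO mice 4.62, 5.72 and 5.92. The fed groups overlapped, while every CTRL mouse that was fasted or treated stood above every AAKO mouse of the same condition. Plin2 was 7.98-fold lower in AAKO when fasted (-3.00 ± 0.25, adjusted p = 2.08e-11) and 5.60-fold lower after CL316243 (-2.48 ± 0.25, adjusted p = 9.42e-09). In CTRL it rose 4.52-fold with fasting and 4.99-fold with CL316243 (2.18 ± 0.25 and 2.32 ± 0.25, adjusted p = 1.39e-08 and 5.87e-08). In AAKO it fell with fasting (-0.84 ± 0.25, adjusted p = 0.00378), with overlapping ranges, and was not called for CL316243 (-0.18 ± 0.25, adjusted p = 0.633). Within wash batch 1, which holds 3 mice of each of the groups in that fasting comparison, the AAKO decrease was -0.52 and not called (adjusted p = 0.339). A second, dimmer Plin2 probe gave -2.36 ± 0.25 and -2.13 ± 0.25 between genotypes in fasted and treated mice, and -0.41 ± 0.25 for fasting in AAKO, which was not called (adjusted p over all probes = 0.151). Among the 6 groups the only neighbours in level whose ranges did not overlap were CTRL fasted and AAKO fed, at means of 7.89 and 5.74.

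Plin5 encodes the perilipin of oxidative tissues, which ties droplets to mitochondria. Its brightest probe lies at chromosome 17, 56251025 to 56251084. Lowest, median and highest levels were 5.53, 5.65 and 5.72 in CTRL fed and 5.26, 5.57 and 5.78 in AAKO fed mice. Fasted CTRL mice had 6.14, 7.32 and 8.10 and fasted AAKO mice 6.37, 6.70 and 7.23. Treated CTRL mice had 5.47, 5.57 and 5.71 and treated AAKO mice 3.75, 3.92 and 4.62. Fasting thus raised Plin5 above every fed mouse in both genotypes, while after CL316243 only the AAKO mice moved, to below every other mouse of the study. The fasting rise was 3.24-fold in CTRL (1.69 ± 0.21, adjusted p = 5.55e-08) and 2.36-fold in AAKO (1.24 ± 0.21, adjusted p = 4.33e-06). CL316243 left CTRL mice at a difference of -0.07 ± 0.21 from fed mice (adjusted p = 0.863) and lowered AAKO mice 2.70-fold (-1.43 ± 0.21, adjusted p = 3.09e-06). AAKO was 2.76-fold below CTRL after CL316243 (-1.46 ± 0.21, adjusted p = 3.36e-06). The genotype difference in fasted mice was smaller and its ranges overlapped (-0.56 ± 0.21, adjusted p = 0.0249). That call was lost without CTRL fasted replicate 2 (-0.40) or 3 (-0.43) and without AAKO fasted replicate 2 (-0.48), 4 (-0.52) or 5 (-0.51). So it was when slide entered as a fixed factor (-0.53), with only these groups in the fit (adjusted p = 0.149) and within wash batch 1 (-0.28). A second Plin5 probe gave -0.67 ± 0.23 in fasted and -1.52 ± 0.23 in treated mice.

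Plin4, a perilipin best known from adipocytes and muscle, was read at chromosome 17, 56240055 to 56240114. The lowest, median and highest were 0.25, 0.66 and 0.98 in CTRL fed and 0.15, 0.44 and 0.75 in AAKO fed mice. They were 1.38, 2.74 and 3.36 in CTRL fasted and 0.79, 1.39 and 2.93 in AAKO fasted mice. Treated CTRL mice had -0.43, 0.16 and 0.53 and treated AAKO mice -1.87, -0.80 and 1.09. Every fasted mouse stood above every fed mouse of its genotype, and the genotypes overlapped in all 3 conditions. Fasting raised Plin4 3.96-fold in CTRL (1.98 ± 0.38, adjusted p = 6.72e-05) and 2.23-fold in AAKO (1.16 ± 0.38, adjusted p = 0.00861; 0.63 and not called within wash batch 2). AAKO was lower than CTRL when fasted (-1.02 ± 0.38, adjusted p = 0.0256). This call was lost without CTRL fasted replicate 2 (-0.88), 3 (-0.89) or 6 (-0.96), without AAKO fasted replicate 2 (-0.86), 4 (-0.89) or 5 (-0.87), with only these groups in the fit (adjusted p = 0.0733) and within wash batch 1 (-0.56). The genotype difference after CL316243 was not called (-0.81 ± 0.38, adjusted p = 0.121) but was without AAKO CL316243 replicate 6 (-1.15, adjusted p = 0.0149). The fall of AAKO with CL316243 was called (-1.18 ± 0.38, adjusted p = 0.0167), but not without AAKO CL316243 replicate 1 (-0.94, adjusted p = 0.0578), with only the groups compared (adjusted p = 0.0617) or within wash batch 1 (-0.94).

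Plin3 encodes a perilipin that moves between the cytosol and small new droplets, and its changes were small. It was read at chromosome 17, 56418429 to 56418488. Levels ran (lowest, median and highest) at 4.05, 4.11 and 4.30 in CTRL fed, 3.78, 4.33 and 4.60 in AAKO fed, 4.00, 4.04 and 4.45 in CTRL fasted and 4.57, 4.61 and 5.04 in AAKO fasted mice. Treated mice had 4.35, 4.46 and 4.73 in CTRL and 4.35, 4.49 and 4.73 in AAKO. Every AAKO fasted mouse stood above every CTRL fasted mouse (0.56 ± 0.11, 1.47-fold, adjusted p = 8.81e-05). The genotypes differed by 0.01 ± 0.11 after CL316243 (adjusted p = 0.982). Fasting raised Plin3 in AAKO (0.48 ± 0.11, adjusted p = 0.000367) and was not called in CTRL (-0.01 ± 0.11, adjusted p = 0.967). CL316243 raised it in CTRL (0.35 ± 0.11, adjusted p = 0.0188), a call that was lost without CTRL CL316243 replicate 4 (0.31), with slide as a fixed factor (0.31) and within either wash batch (0.50 and 0.20). In AAKO the response lay just past the threshold (0.28 ± 0.11, adjusted p = 0.0501) and was called without AAKO fed replicate 4 (0.36, adjusted p = 0.0124), among 8 single arrays whose omission gave a call. It was also called with quantile normalization (0.29), with slide as a fixed factor (0.31) and with no wash batch term (0.28). The same held with outlier marks kept (0.28) and with a filter that asked for all 6 arrays of a group (0.28).

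Plin1, the perilipin that coats the large droplet of adipocytes, was read by 3 probes that disagreed. Its brightest probe (chromosome 7, 86870028 to 86870087), which the files assign to a cDNA and not to the RefSeq transcript, was well above background on all 36 arrays. The probe assigned to the RefSeq transcript (86866112 to 86866171) was so on 12 arrays and another one (86873870 to 86873929) on 4, and neither passed the filter. The brightest probe read -4.07, -3.50 and -3.08 (lowest, median and highest) in CTRL fasted and -3.47, -2.48 and -2.02 in AAKO fasted mice, with overlapping ranges. The other groups had medians between -3.61 and -3.40. AAKO was higher when fasted (0.94 ± 0.19, adjusted p = 8.93e-05). The call held at 0.26 when the background was corrected by normexp and at 0.61 in the authors' values. The direction holds for this probe only: with the mean of the 3 probes the difference was -0.35 and not called (adjusted p = 0.0950), and the other probes had lower means in AAKO than in CTRL fasted mice (-5.30 against -4.76 and -6.38 against -4.95).

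Cidec encodes FSP27, which moves lipid from small droplets into larger ones, and it had the largest responses to fasting among the 10 genes. It was read at chromosome 6, 113374693 to 113374752. Lowest, median and highest levels were 0.04, 0.52 and 0.91 in CTRL fed and -1.21, -0.79 and -0.16 in AAKO fed mice. They were 4.61, 6.61 and 7.70 in CTRL fasted and 3.27, 4.27 and 5.70 in AAKO fasted mice. Treated mice had 1.23, 2.02 and 3.72 in CTRL and -0.83, -0.46 and 0.15 in AAKO. Fasting raised Cidec 59.0-fold in CTRL (5.88 ± 0.41, adjusted p = 7.80e-13) and 31.3-fold in AAKO (4.97 ± 0.41, adjusted p = 4.24e-12). CL316243 raised it 3.40-fold in CTRL (1.76 ± 0.41, adjusted p = 0.00200; 1.42 and not called within wash batch 1) and was not called in AAKO (0.29 ± 0.41, adjusted p = 0.647). Every treated CTRL mouse stood above every fed CTRL mouse, and every treated AAKO mouse stood below every treated CTRL mouse. AAKO was 4.44-fold below CTRL when fasted (-2.15 ± 0.41, adjusted p = 5.72e-05) and 6.55-fold below after CL316243 (-2.71 ± 0.41, adjusted p = 9.64e-06). Within wash batch 1 the fasted difference was -1.49 and not called (adjusted p = 0.0640). In fed mice the difference was -1.24 ± 0.41 and not called after adjustment (limma adjusted p = 0.423), although every AAKO fed mouse stood below every CTRL fed mouse.

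Cideb is the CIDE protein of hepatocytes, known for the lipid loading of lipoproteins, and its differences had the smallest SEs of the 10 genes. It was read at chromosome 14, 56372942 to 56373001. Mice of the groups had a lowest, median and highest of 6.83, 7.11 and 7.26 in CTRL fed, 6.93, 7.03 and 7.11 in AAKO fed, 6.66, 7.03 and 7.21 in CTRL fasted and 5.86, 5.95 and 6.10 in AAKO fasted mice. Treated mice had 7.15, 7.22 and 7.39 in CTRL and 6.90, 7.01 and 7.03 in AAKO. The AAKO fasted mice stood below all 30 other mice, whose ranges overlapped from 1 group to the next. Cideb was 2.04-fold lower in AAKO when fasted (-1.03 ± 0.07, adjusted p = 2.58e-13) and 1.21-fold lower after CL316243 (-0.28 ± 0.07, adjusted p = 0.00289). The latter was -0.26 and not called within wash batch 2. Fasting lowered Cideb in AAKO (-1.06 ± 0.07, adjusted p = 1.61e-14) and was not called in CTRL (-0.09 ± 0.07, adjusted p = 0.308). A second Cideb probe (56377150 to 56377209) gave -0.62 ± 0.10 between genotypes when fasted, and it called a fall with fasting in CTRL as well (-0.32 ± 0.10, adjusted p over all probes = 0.00849). The second probe also called a fall with CL316243 in AAKO (-0.27 ± 0.10, adjusted p over all probes = 0.0427). The brightest probe did not (-0.06 ± 0.07, adjusted p = 0.575). The probes thus differ in the size of the AAKO effect with fasting and in the calls for fasting in CTRL and for CL316243 in AAKO.

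Cidea, the CIDE protein of brown fat, which is known to appear in fatty liver, was dim. Its probe (chromosome 18, 67527351 to 67527410) was well above background on 4 of 6 arrays in CTRL fed, 4 in AAKO fed, 6 in CTRL fasted, 6 in AAKO fasted, 5 in CTRL CL316243 and 3 in AAKO CL316243 mice. Lowest, median and highest levels were -4.15, -3.45 and -2.72 in CTRL fasted and -3.65, -2.46 and -1.81 in AAKO fasted mice. The medians of the other groups lay between -4.93 and -3.94. Cidea passed the filter through both fasted groups and CTRL CL316243. A difference of fasted from fed mice, or of fasted from treated AAKO mice, was favoured by that choice. With fed and treated AAKO levels partly at background, its size is approximate. Cidea was higher in fasted than in fed AAKO mice (2.28 ± 0.49, adjusted p = 0.000161; 0.54 after normexp correction, still called), with no overlap. In CTRL the difference was 1.51 ± 0.49 (adjusted p = 0.0130) with overlapping ranges. That call was lost without CTRL fed replicate 3 (1.05), after normexp correction (0.22) and within wash batch 2 (0.96). The genotype difference in fasted mice was not called (0.92 ± 0.49, adjusted p = 0.125), but was after normexp correction (0.31, adjusted p = 0.0101), in the authors' value table (0.61, adjusted p = 0.0100) and with only these groups in the fit (adjusted p = 0.0384).

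G0s2 encodes an inhibitor of ATGL, and it had the largest genotype differences of the 10 genes. It was read at chromosome 1, 195098925 to 195098984. Lowest, median and highest levels were 2.37, 4.57 and 4.86 in CTRL fed and 1.70, 2.21 and 4.81 in AAKO fed mice. They were 2.35, 3.89 and 4.93 in CTRL fasted and -0.85, -0.07 and 2.91 in AAKO fasted mice. Treated mice had 2.80, 3.21 and 4.29 in CTRL and -2.13, -0.25 and 0.95 in AAKO. The 3 CTRL groups overlapped with each other, and only the treated AAKO mice stood below all CTRL mice of their condition. In AAKO fasted mice, replicates 3 and 6 (2.49 and 2.91) stood apart from the other 4, which lay at 0.21 or lower. G0s2 was 9.09-fold lower in AAKO when fasted (-3.18 ± 0.63, adjusted p = 8.65e-05; -2.01 and not called within wash batch 1) and 14.3-fold lower after CL316243 (-3.83 ± 0.63, adjusted p = 2.88e-05). In CTRL neither fasting (-0.29 ± 0.63, adjusted p = 0.743) nor CL316243 (-0.70 ± 0.63, adjusted p = 0.475) was called. In AAKO it fell 4.41-fold with fasting (-2.14 ± 0.63, adjusted p = 0.00367) and 9.13-fold with CL316243 (-3.19 ± 0.63, adjusted p = 0.000208). The first of these was not called within wash batch 1 (-1.97) and the second not within wash batch 2 (-1.45, adjusted p = 0.0640). In fed mice the genotypes differed by -1.34 ± 0.63, which was not called after adjustment (adjusted p = 0.725).

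Hilpda encodes a small inhibitor of ATGL that is known to be raised by fatty acids and hypoxia. It was read at chromosome 6, 29225127 to 29225186. For fed mice the lowest, median and highest were -0.15, -0.04 and 0.51 in CTRL fed and -0.52, -0.13 and 0.18 in AAKO fed mice. Fasted CTRL mice had 0.24, 1.32 and 2.46 and fasted AAKO mice 1.82, 2.16 and 2.76, with overlap. Treated mice had -0.04, 0.28 and 0.80 in CTRL and -0.56, -0.28 and -0.15 in AAKO. Hilpda rose with fasting 2.37-fold in CTRL (1.24 ± 0.22, adjusted p = 2.57e-05) and 5.09-fold in AAKO (2.35 ± 0.22, adjusted p = 7.36e-11), with no overlap in AAKO. CL316243 was not called in either genotype (0.22 ± 0.22 and -0.15 ± 0.22, adjusted p = 0.520 and 0.671). When fasted, Hilpda was higher in AAKO (0.90 ± 0.22, adjusted p = 0.00107; 0.46 and not called within wash batch 2). After CL316243 every AAKO mouse stood below every CTRL mouse, but the difference was just past the threshold (-0.58 ± 0.22, adjusted p = 0.0568). It was called without CTRL fasted replicate 2 (adjusted p = 0.0146) or 5 (adjusted p = 0.0206), which share the fitted spread, without CTRL CL316243 replicate 3 (-0.64) with slide as a fixed factor (-0.61) and with only the groups compared in the fit (-0.58, adjusted p = 0.0147). The 2 lipase inhibitors therefore lay on opposite sides of 0 between the fasted genotypes, G0s2 lower and Hilpda higher in AAKO.

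**Figure D3:**
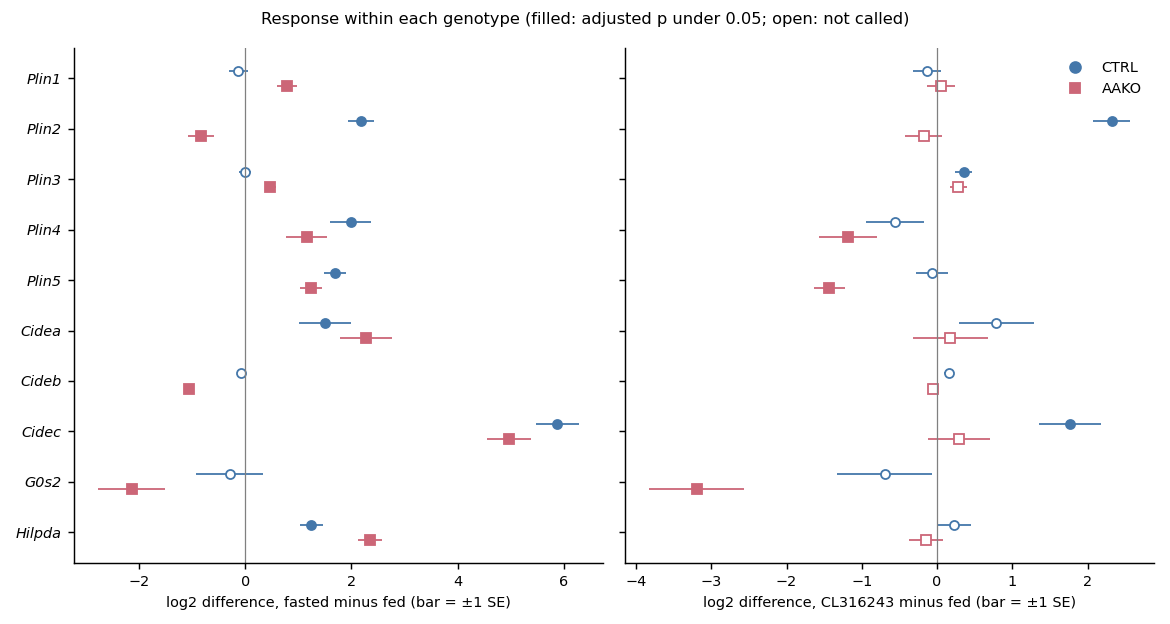
Log2 difference from fed mice of the same genotype after fasting (left) and CL316243 (right), with CTRL as circles, AAKO as squares and bars of 1 SE. Filled symbols are called. The left panel reaches 5.88 for Cidec in CTRL, and the right panel shows Plin2 at 2.32 in CTRL and -0.18 in AAKO.

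Set side by side, the responses of the CTRL and AAKO mice were as follows. Fasting was called for 6 of 10 genes in CTRL, against 43.8% of all genes, and all 6 rose (Plin2, Plin4, Plin5, Cidea, Cidec and Hilpda). In AAKO it was called for 10 of 10, against 63.6% of all genes, with 7 higher and 3 lower (Plin2, Cideb and G0s2). Over the 9 genes that passed the filter in every group, without Cidea, the counts were 5 of 9 in CTRL and 9 of 9 in AAKO. The rise of Plin1 in AAKO (0.79 ± 0.19) was 0.06 with the mean of its probes and 0.64 within wash batch 1, not called in either, and it was 0.18 and called after normexp correction. CL316243 was called for 3 of 10 in CTRL, against 23.1% of all genes, all higher (Plin2, Plin3 and Cidec), and for 3 of 10 in AAKO, against 31.4%, all lower (Plin4, Plin5 and G0s2). The fed mice are from the other experiment in all of these.

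Fasted and treated mice come from the same experiment. In CTRL, 6 of 10 genes were called between them, against 37.1% of all genes: Plin4, Plin5, Cidec and Hilpda were higher when fasted (2.54 ± 0.38, 1.76 ± 0.21, 4.12 ± 0.41 and 1.02 ± 0.22), and Plin3 and Cideb were lower (-0.36 ± 0.11 and -0.25 ± 0.07). Plin2 differed by -0.14 ± 0.25 (adjusted p = 0.691), so the fast and the drug left CTRL mice at overlapping levels of this gene and apart for Cidec. The Plin3 call was lost with quantile normalization (-0.26) and within both wash batches (-0.47 and -0.25), and those of Cideb (-0.14) and Hilpda (0.71) within wash batch 1. In AAKO, 8 of 10 were called, against 60.0% of all genes, with 6 higher when fasted, led by Cidec (4.68 ± 0.41), Plin5 (2.67 ± 0.21) and Hilpda (2.49 ± 0.22), and Plin2 (-0.66 ± 0.25) and Cideb (2.00-fold) lower. Without Cidea, which met the filter in fasted but not in treated AAKO mice, the counts were 6 of 9 in CTRL and 7 of 9 in AAKO. The Cidea call in AAKO (2.10 ± 0.50) was lost within wash batch 1 (1.38). Plin3 and G0s2 were not called in AAKO (0.19 ± 0.11 and 1.05 ± 0.63). Plin3 was called after normexp correction (0.25), with quantile normalization (0.33) and in the authors' value table (0.36). G0s2 was called within wash batch 1 (2.46). The Plin2 call was lost without AAKO fasted replicate 2 (-0.51), 4 (-0.56) or 5 (-0.59) or AAKO CL316243 replicate 4 (-0.58) or 6 (-0.59), and it was -1.11 and called within wash batch 2. It was also lost with quantile normalization (-0.52), in the authors' value table (-0.49), with the mean of both probes (-0.38), with only the groups compared (-0.62) and within wash batch 1 (-0.28). For Plin1 the difference of 0.74 ± 0.19 fell to 0.08 after normexp correction and to 0.13 with the mean of its probes, and was then not called.

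Whether the genotype difference depended on the condition was tested with interactions. Between fasted and fed mice it differed for 5 of 10 genes, against 33.6% of all genes: Plin2 (-3.01 ± 0.35, adjusted p = 9.18e-08), Cideb (-0.97 ± 0.10, adjusted p = 8.26e-09), Plin1 (0.92 ± 0.26), Plin3 (0.48 ± 0.16) and Hilpda (1.104 ± 0.31). The value for Plin1 was 0.26 after normexp correction and -0.32, not called, with the mean of its probes. The Plin1 and Plin3 interactions were called within neither wash batch alone, and that of Hilpda was not called within wash batch 2 (0.74). For Plin4, Plin5, Cidea, Cidec and G0s2 the interaction was not called, so a different response to fasting was not shown for them. The Plin5 interaction was called without CTRL fasted replicate 5 (-0.70, adjusted p = 0.0193), and that of G0s2 (-1.85 ± 0.89, adjusted p = 0.111) without AAKO fasted replicate 3 (-2.24) or 6 (-2.32). Between treated and fed mice the genotype difference changed for 2 of 10 genes, against 10.9% of all genes: Plin2 (-2.50 ± 0.35, adjusted p = 1.33e-05) and Plin5 (-1.36 ± 0.29, adjusted p = 0.00193; -1.48 and -1.16 within the wash batches, called in neither). For the other genes, among them Cidec (-1.47 ± 0.58, adjusted p = 0.107), it was not called, so a different response to CL316243 was not shown for them. The interaction of G0s2 with CL316243 (-2.50 ± 0.89, adjusted p = 0.0685) was called without AAKO CL316243 replicate 3 (-2.81), and with only the groups compared both G0s2 (-2.44) and Cidec (-1.49) were called. That of Cideb (-0.22 ± 0.10, adjusted p = 0.161) was called in the authors' value table (-0.29, adjusted p = 0.0329). Between fasted and treated mice it differed for 5 of 10, against 31.8% of all genes: Plin1 (0.73 ± 0.26), Plin3 (0.55 ± 0.16), Plin5 (0.90 ± 0.29), Cideb (-0.75 ± 0.10) and Hilpda (1.47 ± 0.31). The Plin1 value stayed between 0.58 and 0.70 but was not called without CTRL fasted replicate 1, 3 or 5, AAKO fasted replicate 4 or 6, CTRL CL316243 replicate 2 or 3, or AAKO CL316243 replicate 2. Its call was also lost with no filter on dim probes (adjusted p = 0.0520), with slide as a fixed factor (0.65), with only the groups compared (0.71) and within both wash batches (0.63 and 0.81). It was 0.17 after normexp correction and -0.41 with the mean of the probes, not called in either. The Plin3 and Plin5 values were called in neither wash batch alone, that of Hilpda was 1.01 and not called within wash batch 2, and that of Plin5 was 0.90 and not called with only the groups compared. The second Cideb probe gave -0.32 ± 0.14, which was not called (adjusted p over all probes = 0.0802). For Cidea the value was 1.38 ± 0.70 and not called (adjusted p = 0.136). It was called after normexp correction (0.37), in the authors' value table (0.85) and without CTRL CL316243 replicate 3 (1.81).

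**Figure D4:**
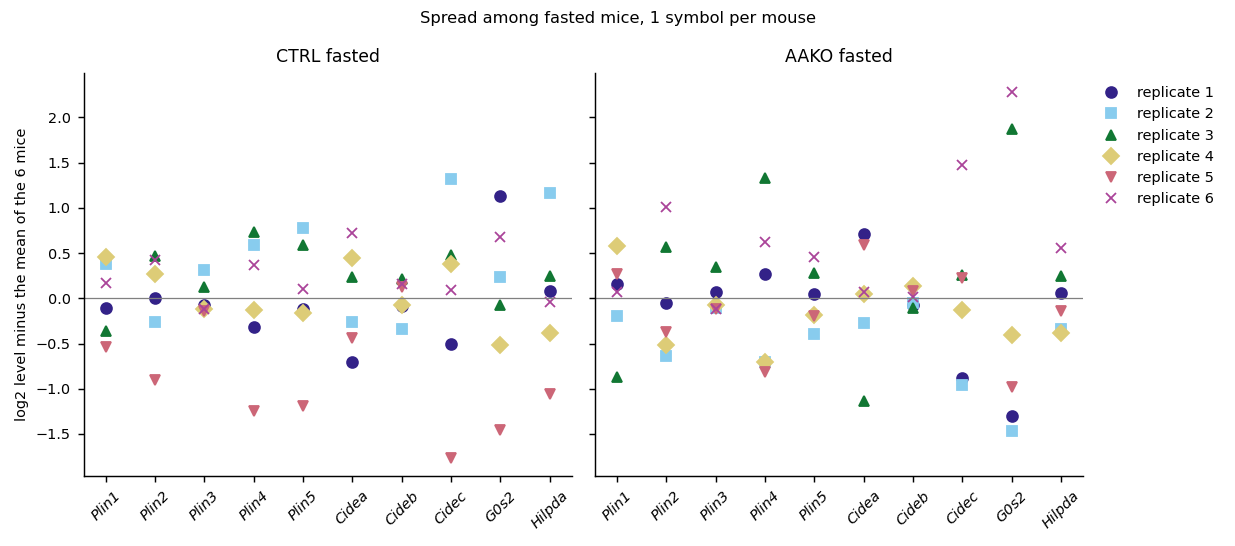
Log2 level minus the mean of the 6 mice of the group for each gene in CTRL fasted (left) and AAKO fasted (right) mice, 1 symbol per mouse. In the left panel replicate 5 (downward triangles) is the lowest for 8 of 10 genes, and in the right panel replicate 6 (crosses) is the highest for 5.

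The spread among fasted mice was shared by several of the genes. CTRL fasted replicate 5 was the lowest of its group for 8 of 10 genes, with a median deviation of -0.98 from the group mean. CTRL fasted replicates 2 and 3 were the highest for 4 and 3 genes. Among AAKO fasted mice, replicate 6 was the highest for 5 genes and replicate 2 was below the mean for all 10. Without CTRL fasted replicate 2, the mouse that stood apart over all genes, 7 of 10 genes were called between the fasted genotypes, with Plin2 at -3.05, Cideb at -1.09, Cidec at -1.88, G0s2 at -3.14, Plin1 at 0.97, Plin3 at 0.62 and Hilpda at 1.14, while Plin4 (-0.88) and Plin5 (-0.40) were not. Without CTRL fasted replicate 5, 9 of 10 genes were again called between the fasted genotypes, with Plin2 at -3.19, Cidec at -2.51, G0s2 at -3.49, Plin4 at -1.30, Plin5 at -0.80 and Hilpda at 0.68. With both mice included, all 6 fasted CTRL mice stood above all fed CTRL mice for Plin2, Plin4, Plin5 and Cidec. These were 4 of 10 genes without overlap, against 22.8% of all genes.

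Some markers of other cells were also called between the fasted genotypes. Over all genes the share called was 49.2% when fasted and 24.6% after CL316243. A marker count near these shares does not show a shift in a cell type. The summed level of the 7 adipocyte markers lay between 0.32 and 1.93 in CTRL fasted and between 0.03 and 0.69 in AAKO fasted mice. Adrb3 and Lep made up most of this sum in CTRL (means of 0.48 and -0.63), with the other markers at -4.29 or lower. Of the 5 tested, 2 were lower in AAKO (Adipoq, -1.03 ± 0.34, and Adrb3, -1.85 ± 0.31) and 0 were higher, and Ucp1 was not well above background in any group. Adipoq was well above background on 3 of 6 AAKO fasted arrays. Lep (0.19 ± 0.10), Retn (0.24 ± 0.26) and Cfd (-2.16 ± 0.95) were not called, so the lower sum in AAKO was mainly that of Adrb3. Of 5 stellate cell markers, 2 were higher in AAKO (Reln, 0.51 ± 0.15, and Dcn, 0.45 ± 0.11), and their summed level lay between 6.39 and 6.72 in CTRL and 6.77 and 7.19 in AAKO. After CL316243, 0 of the tested adipocyte and stellate cell markers were called between the genotypes (largest size 0.535 for Des). All 6 hepatocyte markers were called between the fasted genotypes (2 higher and 4 lower in AAKO) and 2 were higher after CL316243, and of 2 red blood cell markers tested 1 was lower when fasted. Endothelial markers had 2 of 5 higher in AAKO in both conditions, cholangiocyte markers 2 of 4 lower when fasted and 1 after CL316243, and macrophage markers 0 of 6 called. The part of these cells in the differences was not tested.

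Over the 36 arrays, each centred gene was compared with every other tested gene outside the group by the root mean square of the differences. For Plin2 the closest of 24057 was a transcript that the array design names only by an mm9 region, chr4:86267450-86277650, listed on the forward strand, with a root mean square difference of 0.52 against an SD of 1.29 for Plin2 itself. This region lies at lower coordinates than the Plin2 probe and ends 25197 bases from it. The probe is listed on the minus strand, so the region lies downstream of the probe in the direction of Plin2. The transcript was 3.99-fold lower in AAKO when fasted (adjusted p = 8.91e-10) and 2.94-fold lower after CL316243 (adjusted p = 6.83e-07). The next were Chrna2 (0.55) and Cntnap1 (0.59). For Cidec the closest were Cyp4a10, Cyp4a31 and Cyp4a14 (0.76, 0.88 and 1.00, against an SD of 2.70), which encode fatty acid omega-hydroxylases. For Plin5 they were Sulf2, St3gal5 and Pxmp4 (0.45, 0.46 and 0.48, against 1.09). For Cideb they were Cog4, Ppdpf and Hdac3 (0.13, 0.14 and 0.14, against 0.44). For Hilpda the closest was Fitm2, a gene of droplet formation (0.32, against 0.98), followed by Arl4a (0.33) and 4930596I21Rik (0.34). For G0s2 they were Paqr7, Aldh3a2 and Pllp (1.26, 1.29 and 1.32, against 2.00). For Plin3 they were F8a, Aftph and Harbi1 (0.15, 0.16 and 0.17, against 0.28), for Plin1 Frmpd1 and a pair of transcripts named by position (0.30 to 0.31, against 0.49), and for Plin4 Gna15, Sulf2 and a transcript named by position (0.66 to 0.67, against 1.26).

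**Figure D5:**
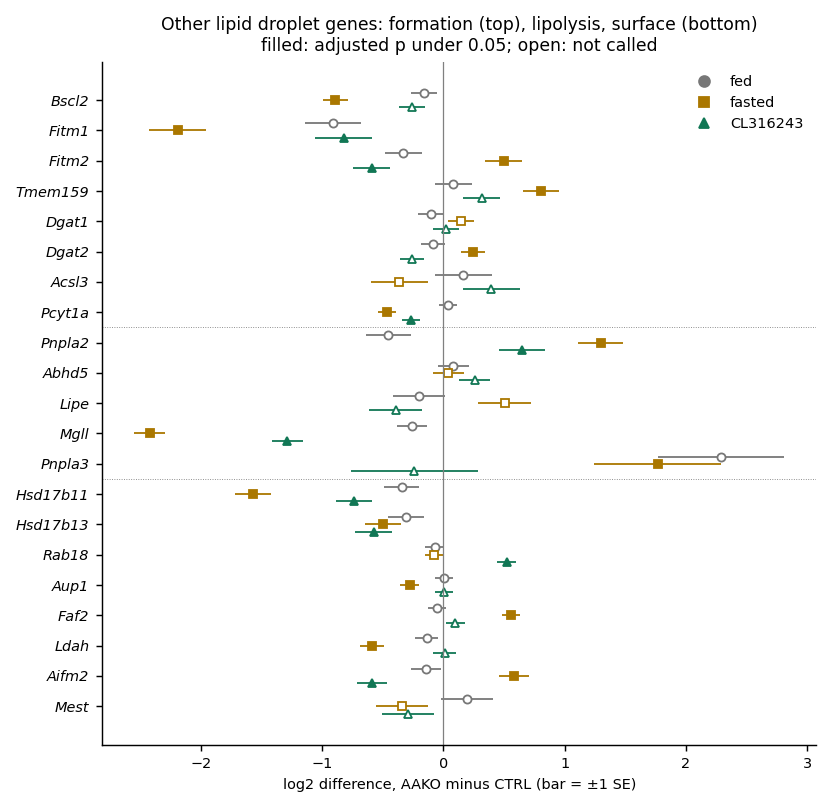
Log2 difference between AAKO and CTRL for 21 other lipid droplet genes in fed (circles), fasted (squares) and CL316243-treated (triangles) mice, with bars of 1 SE, ordered by role and filled where called. Mgll is the lowest when fasted, at -2.42, and Pnpla3 the highest, at 1.76.

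The other genes of the lipid droplet were counted from a list of 21, all of which were tested: 8 of droplet formation, 5 of lipolysis and 8 of the droplet surface. In fed mice 0 were called between the genotypes by limma, and 7 were at an unadjusted p under 0.05, against 6.79% of all genes. The largest fed difference was that of Pnpla3 (2.29 ± 0.52, adjusted p = 0.0912). In fasted mice 15 of 21 were called, against 49.2% of all genes, 7 higher and 8 lower in AAKO, with a list median of -0.08. The lowest were Mgll, the monoglyceride lipase (-2.42 ± 0.13, adjusted p = 1.82e-15), and Fitm1, which aids the packaging of fat into droplets (-2.19 ± 0.23, adjusted p = 3.24e-09). The highest were Pnpla3, a lipase of the ATGL family known for its link to fatty liver (1.76 ± 0.52, adjusted p = 0.00538; with 4 of 6 CTRL arrays well above background), and Pnpla2, the gene of ATGL itself (1.30 ± 0.19, adjusted p = 8.25e-07). Since the deletion is in adipose tissue, the liver level of Pnpla2 does not check the genotype. After CL316243, 9 of 21 were called, against 24.6% of all genes, 2 higher and 7 lower, with a median of -0.26. Mgll (-1.29 ± 0.13) and Fitm1 (-0.82 ± 0.23) were again the lowest. Fitm1 differed by -0.91 ± 0.23 in fed mice, not called (adjusted p = 0.188), and its interaction of genotype with CL316243 was 0.09 ± 0.33 (adjusted p = 0.922). The higher ones were Pnpla2 (0.65 ± 0.19) and Rab18, a small GTPase of droplets (0.52 ± 0.08). Fasting was called for 17 of 21 in CTRL (8 higher), against 43.8% of all genes, and for 20 in AAKO (8 higher), against 63.6%. CL316243 was called for 5 in CTRL (0 higher), against 23.1% of all genes, and for 12 in AAKO (3 higher), against 31.4%, so the share in CTRL was near that of all genes.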

How the data were processed

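Each mouse has 1 Cy3 array, read with Agilent Feature Extraction (version 10.10.1.1). Spot intensity was corrected by spatial detrending of background and by multiplicative detrending, per the file headers, which record no step between arrays. The authors also deposited log2 values of 36898 probes, with no normalization stated. Each of that table's 36 columns correlated best with its own array, and within each of the 6 groups the columns held identical sorted values (tolerance 1e-06). The columns' medians ran from 6.88 to 7.01. How its probes were chosen is unknown. It served as an alternative.

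Here, log2 values of the processed intensity were averaged over spots of a probe, leaving out control spots and 0.127% of spots with an outlier mark (0 were saturated). They were then set against the 75th percentile of the array. Of 56605 probes, 32994 were named through RefSeq accessions (GRCm38.p6, for names only). The brightest probe stood for a gene. Group means and wash batch were estimated together from all 36 arrays in limma 3.58.1 (R 4.3.3), with two-sided tests. The fit was tested on simulated data. Probe positions are mm9, from the files, which give no exon or UTR for them.

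The members and lists were chosen with earlier results of these data known. The rule named all 10 members in every comparison, other droplet genes where called between genotypes (at most 2 highest and 2 lowest), and the 3 nearest patterns of each member called between genotypes. Ldaf1 stands in the data under its older symbol Tmem159. The alternatives were 4 other scalings or backgrounds, filters, batch terms, subsets and leaving out each array. The number of arrays limits the precision.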

Additional observations from a re-analysis of the deposited data

Results flagged for a closer look

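An array stood apart from the other 5 of its group, by Dixon's ratio, in 3 of 60 groups, where chance gives about 1 in 20. Plin2 was at 4.62 in AAKO CL316243 replicate 2, against 5.51 for the next lowest. Hilpda was at -0.56 in the same mouse, against -0.30. Cidea was at -7.24 in CTRL fed replicate 3, against -4.73.

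The genotype difference varied with the condition for 12 of 30 interactions of these genes (limma, adjusted over all genes), against 33.6%, 10.9% and 31.8% of all genes in the 3 interactions. Between fasted and fed mice it was -3.01 for Plin2, -0.97 for Cideb, 0.92 for Plin1, 0.48 for Plin3 and 1.104 for Hilpda. Between CL316243-treated and fed mice it was -2.50 for Plin2 and -1.36 for Plin5. Between fasted and treated mice it was 0.73 for Plin1, 0.55 for Plin3, 0.90 for Plin5, -0.75 for Cideb and 1.47 for Hilpda.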

How the results depend on the processing

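Of 62 called differences of the 10 genes, 32 kept direction and call under every alternative run, and 55 did when each array was left out in turn. The reversals were those of Plin1 with the mean over its probes: -0.35 between the fasted genotypes, -0.32 for the interaction of fasting against feeding and -0.41 for fasting against CL316243, where 2 of its 3 probes were mostly at background. A further 38 values without 1 array and 46 under other alternatives differed in sign from differences called in neither case.

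Counts of called genes moved by over 1.5 times within the wash batches, which leave 2 to 4 mice per group. Within wash batch 1 they were 5 between the fasted genotypes (9 with all arrays), 1 for CL316243 in CTRL (3), 3 for fasted against CL316243 in CTRL (6), and 3 (5), 1 (2) and 2 (5) for the interactions of genotype with fasting, with CL316243 and with fasting compared to CL316243. Within wash batch 2 the 3 interactions were 2, 1 and 1. With only the groups compared in the fit, the latter 2 were 4 and 3. Without 1 array the counts were 0, 7 to 9 and 5 to 6 between the genotypes (fed, fasted, CL316243). For fasting they were 5 to 6 in CTRL and 10 in AAKO, and for CL316243 2 to 4 in both. For fasted against CL316243 they were 6 in CTRL and 7 to 8 in AAKO, and for the 3 interactions 5 to 6, 2 to 3 and 4 to 5. The replicate number as a block changed 0 of the calls. Mice share only a number: of 90 same-numbered pairs, 16 had deviations correlated above 0.1.

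Sizes for the dim probes of Plin1 and Cidea depend on the background correction. The median of all genes shifted to -0.108 for fasting in CTRL under scaling by the median, and under normexp to -0.109 for fasting and -0.135 for fasted against CL316243 in AAKO.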
